A study of Mus musculus with 9 samples.

Results

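The genes of the cell cycle and DNA replication were examined as a list of 49 mouse genes, made up of cyclins and their kinases, kinase inhibitors, replication and nucleotide synthesis genes, mitotic genes and the transcription factors that drive them. The members were picked by gene symbol with earlier results of these data known, though the rule itself uses no measured value, and all 49 were found among the 55655 rows of the RNA-seq tables. The cells were bone marrow-derived macrophages (BMDMs), flushed from the femur and tibia of wild-type C57BL/6 mice of 6 to 8 weeks and differentiated for 7 days in the growth factor M-CSF (macrophage colony-stimulating factor) at 10 ng/mL. M0 macrophages had no further stimulus, M1 macrophages received lipopolysaccharide (LPS) and interferon-γ (IFN-γ) for 12 h, and M1 + PBM macrophages received the same stimulus together with photobiomodulation, which is irradiation with a near-infrared laser. Each group had 3 libraries, and although the study describes the experiment as independently repeated, the sources do not say whether the replicates came from separate mice, so the p-values below measure only the spread between these libraries.

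Cells enter the cycle when a mitogen such as M-CSF raises D-type cyclins, whose kinases release E2F transcription factors from the retinoblastoma protein. E2F then switches on the genes that license and copy DNA, and later the MuvB complex with B-Myb and FOXM1 switches on the genes of mitosis, many through a CHR element next to CCAAT boxes. Bone marrow macrophages divide in M-CSF, and LPS and IFN-γ are known to stop that division. In bulk RNA, fewer dividing cells and less RNA per dividing cell cannot be told apart.

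Levels are FPKM, which count fragments relative to transcript length and to the size of the library. Comparisons between libraries also depend on how values are scaled, and the ratios to M0 below use unscaled FPKM. Over all rows kept, the median log2 difference of M1 minus M0 was -0.34 before and 0.042 after scaling by the median of ratios. The 3 M0 libraries stood in a table of their own, which may have been normalized separately, so values of M0 beside those of M1 or M1 + PBM are a description with no test. The depth, estimated from the steps of low values, was 30700000 to 34570000 fragments in M0, 31280000 to 39650000 in M1 and 34540000 to 42080000 in M1 + PBM. The 8 macrophage markers were all present, with a summed level of 5277 to 10187 FPKM. The 9 markers of bone marrow progenitors summed to 1.52 to 2.12 FPKM in M0, 0.186 to 0.374 in M1 and 0.162 to 0.233 in M1 + PBM, led by Kit, with Mpo and Elane at or near 0 in every library. The lymphoid list summed to 0.634 to 0.753 FPKM in M0, 0.12 to 0.236 in M1 and 0.179 to 0.201 in M1 + PBM. In M0 nearly all of it came from Cd79a and Cd79b, while Ms4a1 was at 0 in M0 and reached 0.0588 FPKM in M1 replicate 3. The erythroid list summed to 1.18 to 1.32 FPKM in M0, 0.504 to 1.09 in M1 and 0.593 to 0.801 in M1 + PBM. It was led by Alas2, while the globin genes of the list were near 0 in M0 and highest in M1 replicate 2. The dendritic list went the other way, at 0.451 to 0.599 FPKM in M0, 0.96 to 1.18 in M1 and 0.764 to 1.24 in M1 + PBM. The progenitor, lymphoid and erythroid sums, each low and carried by few genes, were thus lower in both stimulated groups, as most cell cycle genes were. The part of these cell types in that difference was not tested. The 9 neutrophil markers summed to 4.19 to 5.77 FPKM in M0, 83.1 to 195.9 in M1 and 110.1 to 125.1 in M1 + PBM, nearly all from Lcn2 and S100a8, while Ly6g and S100a9 were listed at 0 in every library. The 9 stromal markers, led by Col1a1, stood apart in M0 replicate 3, at 199.3 FPKM against 7.06 and 5.83 in M0 replicates 1 and 2. They summed to 13.9, 13.2 and 15.4 FPKM in M1 and to 23.1, 6.33 and 28.7 FPKM in M1 + PBM replicates 1, 2 and 3. M0 replicate 2 was the lowest M0 library for 49 of 49 cell cycle genes, and M1 + PBM replicate 2 was the lowest of its group for 43 of 49. The shares of all rows lowest in these libraries are not given here, so whether the counts are particular to the cell cycle genes cannot be told. The part of the stromal signal in these differences between libraries was not tested.

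Promoter sequences are shown for genes of replication and of mitosis, in which different motifs were more frequent. The RefSeq promoter table (GRCm38.p6, 250 bases before to 50 bases after each start) held 39 of the 49 genes. The others were Aurkb, Ccna2, Ccnd1, Ccnd2, Ccne2, Foxm1, Kif20a, Mcm4, Myc and Tpx2. Both strands were searched for the CCAAT box, whose letters are its name, for the CHR element, spelled TTTGAA, and for an E2F motif, spelled TTTCCCGC or TTTGGCGC. None of these contains the letters of another. The 170 bases just before the start are shown for 3 replication genes, chosen because Pcna is the most abundant gene of the list, Mcm5 is among the 3 that passed the unadjusted threshold with PBM when libraries were paired, and Mcm6 holds 2 E2F motifs, and for 3 genes of mitosis with a CHR element. Capitals mark the motifs on either strand, so a CCAAT box on the opposite strand reads ATTGG, and the CHR element and the E2F motif there also read as their reverse complements. The stretches lie at chr2:132253181-132253350 (minus strand) for Pcna, chr8:75109339-75109508 (plus strand) for Mcm5, chr1:128359706-128359875 (minus strand) for Mcm6, chr10:69352913-69353082 (minus strand) for Cdk1, chr11:99024190-99024359 (minus strand) for Top2a and chr4:118437344-118437513 (minus strand) for Cdc20, each printed 5′ to 3′ on the strand of its gene.
Pcna: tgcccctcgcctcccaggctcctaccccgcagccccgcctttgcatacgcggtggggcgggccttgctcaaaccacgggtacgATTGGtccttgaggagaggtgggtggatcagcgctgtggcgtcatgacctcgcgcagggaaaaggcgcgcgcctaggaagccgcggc
Mcm5: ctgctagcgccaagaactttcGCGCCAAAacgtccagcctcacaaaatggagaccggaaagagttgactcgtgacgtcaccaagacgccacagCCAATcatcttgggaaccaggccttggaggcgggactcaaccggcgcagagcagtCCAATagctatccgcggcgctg
Mcm6: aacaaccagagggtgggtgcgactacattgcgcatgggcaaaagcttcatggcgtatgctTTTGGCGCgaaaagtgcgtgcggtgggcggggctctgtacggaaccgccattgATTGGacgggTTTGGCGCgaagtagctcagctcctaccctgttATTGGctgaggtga
Cdk1: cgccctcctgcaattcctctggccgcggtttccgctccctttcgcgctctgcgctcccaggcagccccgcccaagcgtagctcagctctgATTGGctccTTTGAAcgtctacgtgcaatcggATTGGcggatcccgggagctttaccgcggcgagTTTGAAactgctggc
Top2a: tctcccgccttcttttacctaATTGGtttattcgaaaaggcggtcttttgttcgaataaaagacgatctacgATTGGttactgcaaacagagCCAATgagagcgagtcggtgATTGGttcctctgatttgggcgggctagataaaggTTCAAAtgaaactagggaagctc
Cdc20: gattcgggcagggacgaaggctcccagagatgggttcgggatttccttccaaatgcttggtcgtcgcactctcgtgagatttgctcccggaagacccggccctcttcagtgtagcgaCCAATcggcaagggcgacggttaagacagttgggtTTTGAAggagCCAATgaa

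Among 21 genes grouped as mitotic (the proliferation markers, mitotic cyclins and Cdk1, mitotic kinases, spindle genes and partners of the anaphase-promoting complex), 18 were in the table. Of these 18, 13 (72.2%) held the CHR letters and 0 the E2F letters. The 0 covers only the 2 E2F spellings given above, since other spellings were not searched. Among the 21 other genes in the table, 2 (9.52%) held the CHR letters and 8 (38.1%) the E2F letters. Over all 32851 promoters, the CHR letters occurred in 17.9%, the E2F letters in 1.56% and the CCAAT box in 37.4%. The CCAAT box was found in 16 of the 18 mitotic promoters and in 13 of the 21 others. The CHR letters were thus missing from 5 of the 18 mitotic promoters, and the 2 other genes that held them were Mcm2 and E2f2. All 15 promoters with a CHR also held a CCAAT box, a combination found in 6.95% of all promoters. A match is a run of letters and not a measured binding site, and the division into mitotic and other genes for this count was made after the values were seen.

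**Figure D1:**
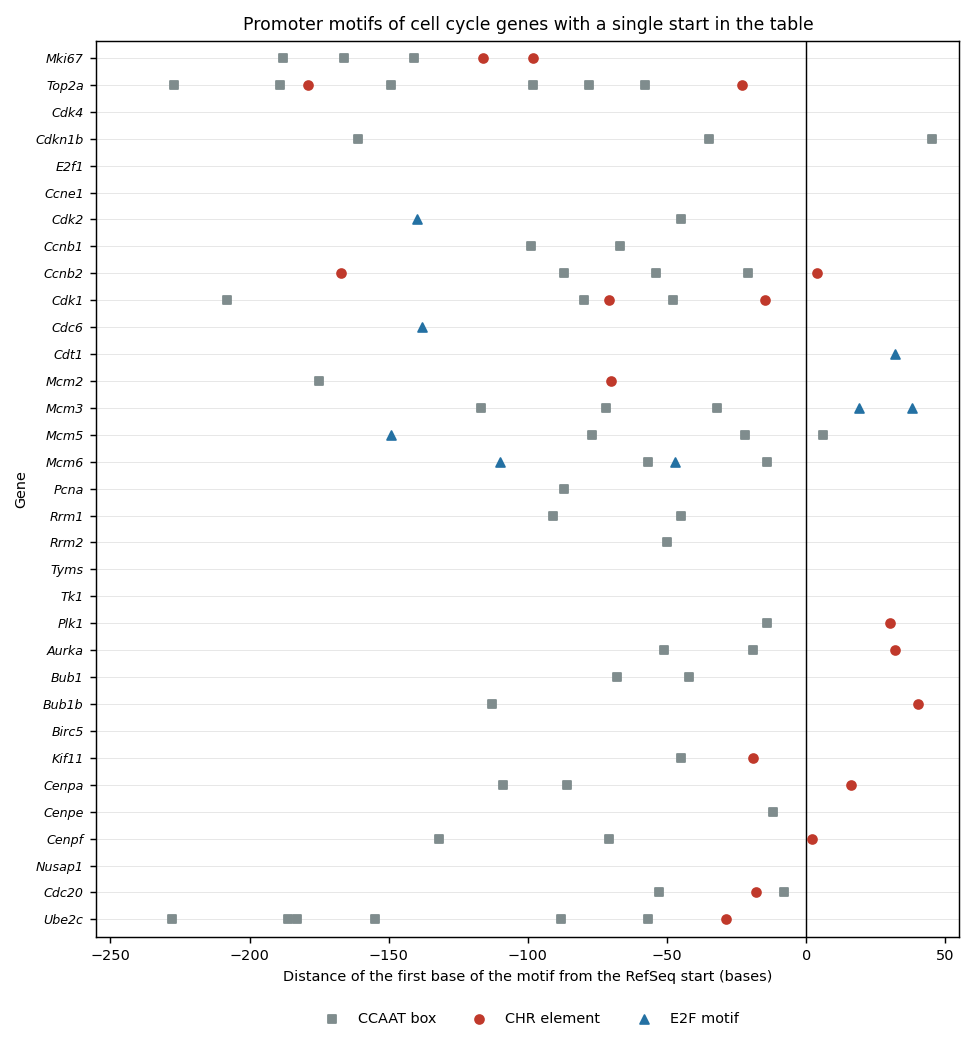
Positions of the CCAAT box (grey squares), the CHR element (red circles) and the E2F motif (blue triangles) in the promoters of the 33 genes with 1 start in the RefSeq table; the x axis is the distance in bases from the start (vertical line). CHR elements lie mostly in the rows of mitotic genes and E2F motifs only in the rows of replication genes and Cdk2.

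The list was far lower in both stimulated groups than in M0. The median level over the 49 genes was 14.2, 5.43 and 15.7 FPKM in M0 replicates 1, 2 and 3, against 1.37, 0.682 and 0.769 FPKM in M1 and 1.99, 0.505 and 1.71 FPKM in M1 + PBM. In every M1 library 44 of the 49 genes were lower than in every M0 library, where 50.6% of all 13915 rows kept were, and 0 were higher, against 15.6% of all rows. In M1 + PBM the count was 43 of 49, against 46.2% of all rows, and 0 were higher, against 15.9%. Rows were kept at 1 FPKM in 3 or more of the 9 libraries. A row under 1 FPKM in every stimulated library was therefore kept only through M0, which fixed in advance that it was lower. Such rows enter both the counts and the shares. Of the 49 genes, 17 were under 1 FPKM in all M1 libraries and 13 in all M1 + PBM libraries. The mean level in M0 was at least 10 times that in M1 for 28 genes, 5 to 10 times for 8, 2 to 5 times for 9 and under 2 times for 4. The median of the log2 difference, M1 minus M0 on the log2(FPKM + 1) scale, was -2.41 over the 49 genes and -0.34 over all rows kept. For M1 + PBM minus M0 these medians were -2.09 and -0.27. The medians over all rows moved to 0.042 and 0.040 when libraries were scaled by the median of ratios, and the shares of all rows lower than in M0 moved to 25.3% and 23.8%. With that scaling 43 of the 49 genes were lower in M1 and 43 in M1 + PBM, and the medians over the genes were -2.03 and -1.77. Without M0 replicate 3, the library with the high stromal sum, the counts were again 44 and 43. The 2 comparisons share the M0 libraries.

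**Figure D2:**
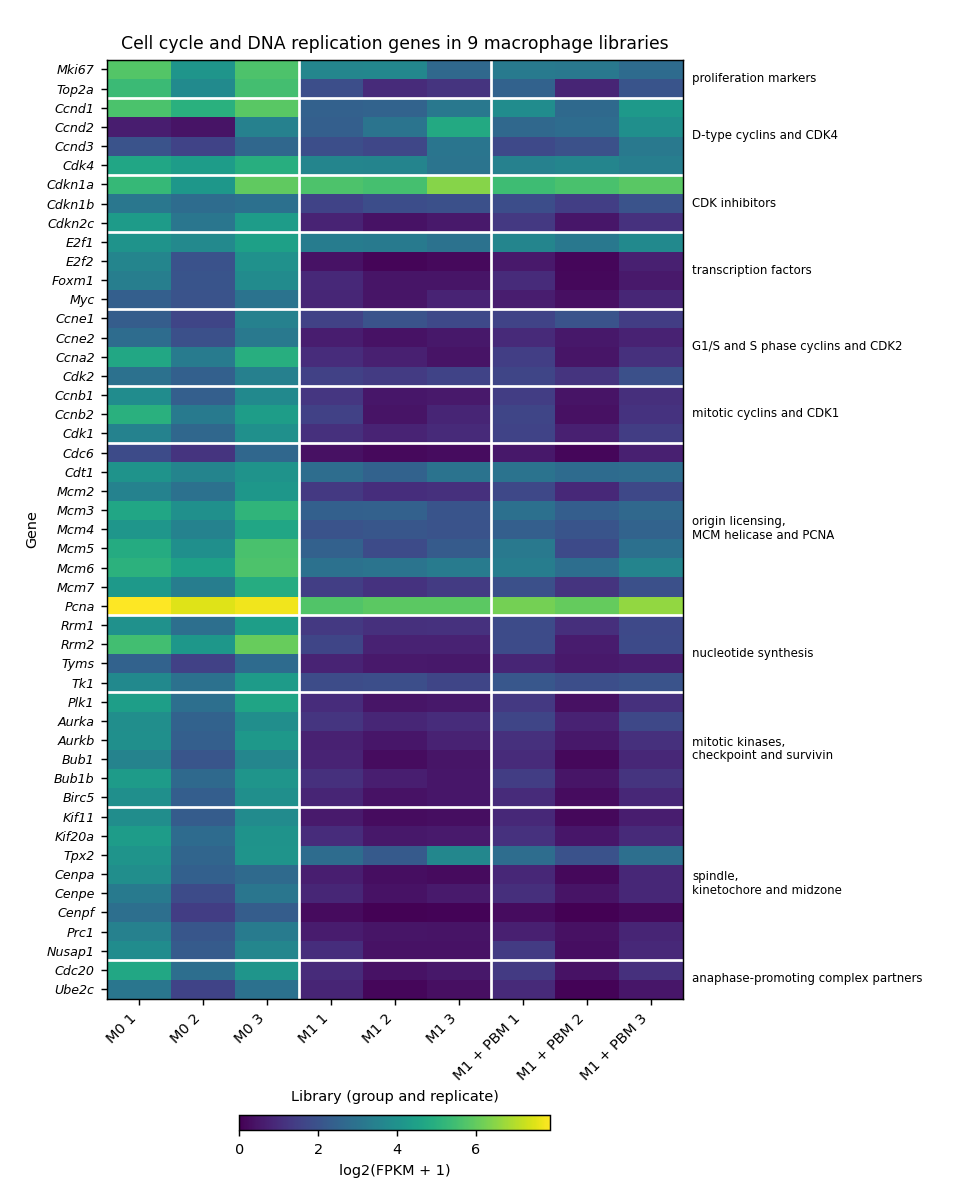
Level of each of the 49 genes (rows, grouped by role) in the 9 libraries (columns), coloured by log2(FPKM + 1). M0 replicates 1 and 3 are the brightest columns, and the mitotic rows at the bottom are dark in M1 and M1 + PBM.

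The proliferation markers differed in how far apart the groups lay. Mki67, whose protein Ki-67 coats mitotic chromosomes, stood at 54.2, 16.1 and 50.6 FPKM in M0 replicates 1, 2 and 3, at 11.4, 11.4 and 5.39 in M1, and at 8.57, 7.98 and 5.77 in M1 + PBM. Its M0 mean was 4.29 times its M1 mean. Top2a, the topoisomerase that untangles replicated DNA, stood at 40.6, 12.6 and 45.4 FPKM in M0, at 2.75, 0.969 and 1.30 in M1, and at 4.55, 0.770 and 3.10 in M1 + PBM, and its M0 mean was 19.6 times its M1 mean. Both genes were below every M0 library in all 6 stimulated libraries.

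The D-type cyclins, which carry the mitogen signal to CDK4 and CDK6, did not share a pattern. Ccnd1 (ENSMUSG00000070348) stood at 49.2, 31.1 and 57.7 FPKM in M0, at 4.50, 4.67 and 7.99 in M1, and at 13.3, 5.52 and 17.6 in M1 + PBM. The M0 mean was 8.04 times the M1 mean and 3.79 times the M1 + PBM mean, with no overlap. Ccnd2 (ENSMUSG00000000184) was at 0.539 and 0.326 FPKM in M0 replicates 1 and 2 but at 9.97 in replicate 3, against 4.25, 7.15 and 26.8 in M1 and 5.34, 5.91 and 14.1 in M1 + PBM. M0 replicate 3 alone made the groups overlap. In that library Col1a1 reached 122.8 FPKM against 4.44 and 3.44 in the other M0 libraries. In M1 replicate 3, where Ccnd2 was highest, Col1a1 was at 6.25 FPKM. Whether the levels of Ccnd2 and Col1a1 are linked was not tested. Ccnd3 stood at 3.07, 1.98 and 5.24 FPKM in M0, at 2.68, 2.20 and 7.31 in M1, and at 2.32, 2.84 and 8.10 in M1 + PBM, so replicate 3 was the highest in each group and the groups overlapped. Cdk4, the kinase partner of these cyclins, averaged 24.6 ± 5.21 FPKM (SD, n = 3) in M0, 9.66 ± 2.14 in M1 and 10.1 ± 0.882 in M1 + PBM.

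The 3 inhibitors of cyclin-dependent kinases went different ways. Cdkn1a (ENSMUSG00000023067), which encodes p21, was the most abundant of them, at 38.0, 17.1 and 61.5 FPKM in M0, at 49.8, 46.0 and 85.5 in M1, and at 41.8, 47.9 and 56.9 in M1 + PBM. The M1 mean, 60.4 ± 21.8 FPKM, lay above the M0 mean, 38.9 ± 22.2 FPKM, but the libraries overlapped. Cdkn1b, which encodes p27 and is known to rise in resting cells, stood at 7.68, 5.89 and 6.58 FPKM in M0, at 2.01, 2.67 and 2.83 in M1, and at 2.64, 1.74 and 3.05 in M1 + PBM. Cdkn2c, which encodes the CDK4 and CDK6 inhibitor p18, had one of the widest gaps of the list, with 19.1, 7.53 and 19.6 FPKM in M0, 0.730, 0.297 and 0.460 in M1, and 1.5, 0.379 and 1.20 in M1 + PBM. Cdkn1b and Cdkn2c were thus below every M0 library in both stimulated groups, at M0 means of 2.68 and 31.1 times the M1 means.

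Of the 4 transcription factors, E2f1 kept the highest level after stimulation. E2f1, an activator of S phase genes, stood at 15.5, 12.2 and 21.5 FPKM in M0, at 8.87, 8.57 and 6.84 in M1, and at 11, 7.88 and 12.3 in M1 + PBM. It was the gene that was lower than M0 in every M1 library but overlapped M0 in M1 + PBM, where replicate 3 reached just above M0 replicate 2. E2f2, an activator of the same family, stood at 11, 2.93 and 14.9 FPKM in M0, at 0.309, 0.0861 and 0.161 in M1, and at 0.440, 0.106 and 0.612 in M1 + PBM, and its M0 mean was 51.8 times its M1 mean. Foxm1, an activator of mitotic genes, stood at 9.42, 3.15 and 13.1 FPKM in M0, at 0.877, 0.371 and 0.355 in M1, and at 0.968, 0.133 and 0.441 in M1 + PBM. Myc, a driver of growth and of cell cycle entry, stood at 4.23, 3.03 and 7.06 FPKM in M0, at 0.797, 0.353 and 0.710 in M1, and at 0.557, 0.254 and 0.800 in M1 + PBM. E2f2, Foxm1 and Myc were under 1 FPKM in all 6 stimulated libraries.

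Cyclins of S phase differed in how far they lay below M0. Ccna2, the cyclin of S phase and G2, stood at 25.6, 8.72 and 29.4 FPKM in M0, at 1.02, 0.60 and 0.339 in M1, and at 1.73, 0.351 and 1.14 in M1 + PBM, an M0 mean 32.6 times the M1 mean. Ccne1, a cyclin of S phase entry, overlapped between M0 (2.11 to 10.1 FPKM) and M1 (1.91 to 3.08 FPKM). Ccne2, its paralog, did not overlap, with 5.54 ± 2.64 FPKM in M0, 0.422 ± 0.125 in M1 and 0.677 ± 0.234 in M1 + PBM. Cdk2, the kinase partner of cyclins E and A, was 3.80 times higher in M0 (6.95 ± 2.73 FPKM) than in M1 (1.83 ± 0.207 FPKM) and averaged 2.06 ± 0.771 FPKM in M1 + PBM.

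For entry into mitosis, Ccnb2 stood at 30.8, 8.32 and 19.7 FPKM in M0, at 1.86, 0.345 and 0.769 in M1, and at 2.11, 0.273 and 1.25 in M1 + PBM. Cdk1, the kinase that cyclin B activates, stood at 10.3, 5.25 and 14.4 FPKM in M0, at 1.14, 0.723 and 0.929 in M1, and at 1.99, 0.610 and 1.73 in M1 + PBM. The M0 means were 19.8 and 10.7 times the M1 means, and in both genes M1 + PBM replicate 2 was the lowest of all 9 libraries. Ccnb1, the other B-type cyclin of the list, averaged 9.92 ± 4.97 FPKM in M0, 0.734 ± 0.552 in M1 and 1.05 ± 0.690 in M1 + PBM.

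Genes of origin licensing, the MCM helicase and its sliding clamp kept more of their level than the mitotic genes, with a median M0 to M1 ratio of 6.18 over 9 genes. Pcna (ENSMUSG00000027342), the clamp that holds DNA polymerase on its template, was the most abundant gene of the list, at 234.8, 179.0 and 209.0 FPKM in M0, at 52.0, 57.9 and 58.0 in M1, and at 74.1, 63.9 and 96.5 in M1 + PBM. The 3 groups did not overlap, with M1 + PBM between the others. Mcm5 (ENSMUSG00000005410), a helicase subunit, stood at 28.1, 14 and 48.1 FPKM in M0, at 4.41, 2.48 and 3.81 in M1, and at 8.16, 2.44 and 6.55 in M1 + PBM, so replicates 1 and 3 of M1 + PBM lay above all of M1 and replicate 2 lay below. Among the other helicase subunits, the ratio of the M0 mean to the M1 mean was 9.33 for Mcm2, 6.18 for Mcm3, 5.48 for Mcm4, 4.64 for Mcm6 and 12.2 for Mcm7. Mcm6 had the highest level of these, at 34.9 ± 14.8 FPKM in M0, 7.52 ± 1.07 in M1 and 8.71 ± 2.29 in M1 + PBM. Cdc6 and Cdt1 load the helicase on origins, and they differed from each other. Cdc6 had an M0 to M1 ratio of 14.3 and averaged 2.97 ± 2.01 FPKM in M0, 0.208 ± 0.0684 in M1 and 0.383 ± 0.258 in M1 + PBM. Cdt1 averaged 13.9 ± 2.72 FPKM in M0, 5.84 ± 1.25 in M1 and 6.25 ± 0.642 in M1 + PBM, an M0 to M1 ratio of 2.37.

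In nucleotide synthesis, the subunits of ribonucleotide reductase, which makes deoxynucleotides, were both lower than in M0. Rrm2 stood at 44.2, 17.0 and 65.4 FPKM in M0, at 2.13, 0.682 and 0.701 in M1, and at 2.5, 0.505 and 2.44 in M1 + PBM, an M0 mean of 36.1 times the M1 mean. Rrm1 stood at 14.7, 6.33 and 20.5 FPKM in M0, at 1.49, 1.12 and 1.19 in M1, and at 2.48, 1.11 and 2.34 in M1 + PBM. Its M0 mean was 10.9 times its M1 mean, and in both genes replicate 2 was the lowest M1 + PBM library. Rrm2 is the subunit known for its rise in S phase, while Rrm1 is more stable. Tk1, the thymidine kinase of S phase, stood at 12.4, 6.73 and 18.9 FPKM in M0, at 2.53, 2.70 and 2.16 in M1, and at 3.43, 2.73 and 3.0 in M1 + PBM. Its 3 groups did not overlap, but M1 + PBM replicate 2 and M1 replicate 2 lay close together. Tyms, thymidylate synthase, averaged 4.04 ± 1.96 FPKM in M0, 0.541 ± 0.168 in M1 and 0.583 ± 0.163 in M1 + PBM.

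The mitotic kinases and checkpoint genes had a median M0 to M1 ratio of 20.4 over 6 genes, from 10.4 to 28.1. Plk1, the polo-like kinase of mitosis, stood at 20.6, 6.37 and 23.1 FPKM in M0, at 1.00, 0.352 and 0.424 in M1, and at 1.48, 0.274 and 1.11 in M1 + PBM. Aurka, the kinase of the spindle poles, stood at 13.8, 4.60 and 14 FPKM in M0, at 1.32, 0.796 and 0.999 in M1, and at 2.13, 0.696 and 2.24 in M1 + PBM. In both genes M1 + PBM replicates 1 and 3 were the highest of the 6 stimulated libraries and replicate 2 the lowest. Aurkb, the kinase of the chromosomal passenger complex, and Birc5, survivin, a member of the same complex, were 21 and 22.4 times higher in M0 than in M1. The spindle checkpoint genes Bub1 and Bub1b were 19.8 and 19.3 times higher.

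Among the 8 genes of the spindle, kinetochore and midzone, 7 were lower than M0 in every M1 library. The exception was Tpx2 (ENSMUSG00000027469), which activates Aurora A on spindle microtubules, at 16.1, 4.91 and 15.8 FPKM in M0, at 5.93, 3.67 and 11.5 in M1, and at 6.06, 2.95 and 6.36 in M1 + PBM. Its M1 replicates 1 and 3 lay above M0 replicate 2, and its M1 level was far above that of every other gene in this group. Kif11 and Kif20a, motors of spindle assembly and of the midzone, had M0 to M1 ratios of 33.9 and 21.3. The kinetochore and centromere genes Cenpa and Cenpe had ratios of 23.9 and 11.6, and Cenpf averaged 4.03 ± 2.33 FPKM in M0 and 0.0806 ± 0.0733 in M1. Prc1 and Nusap1, which bundle and bind spindle microtubules, had ratios of 18.2 and 16.8. The low levels in M1 limit these ratios, since the highest of the 6 stimulated libraries held about 72.8 fragments for Cenpf and the lowest about 7.79, by the estimated depth and the longest transcript.

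Both genes that work with the anaphase-promoting complex, the ligase that ends mitosis, were lower than M0 in every stimulated library. Cdc20, its activator, stood at 25.3, 6.20 and 16.3 FPKM in M0, at 0.974, 0.304 and 0.411 in M1, and at 1.51, 0.297 and 1.13 in M1 + PBM. Ube2c, its ubiquitin-conjugating enzyme, averaged 5.39 ± 2.96 FPKM in M0, 0.371 ± 0.354 in M1 and 0.451 ± 0.433 in M1 + PBM.

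**Figure D3:**
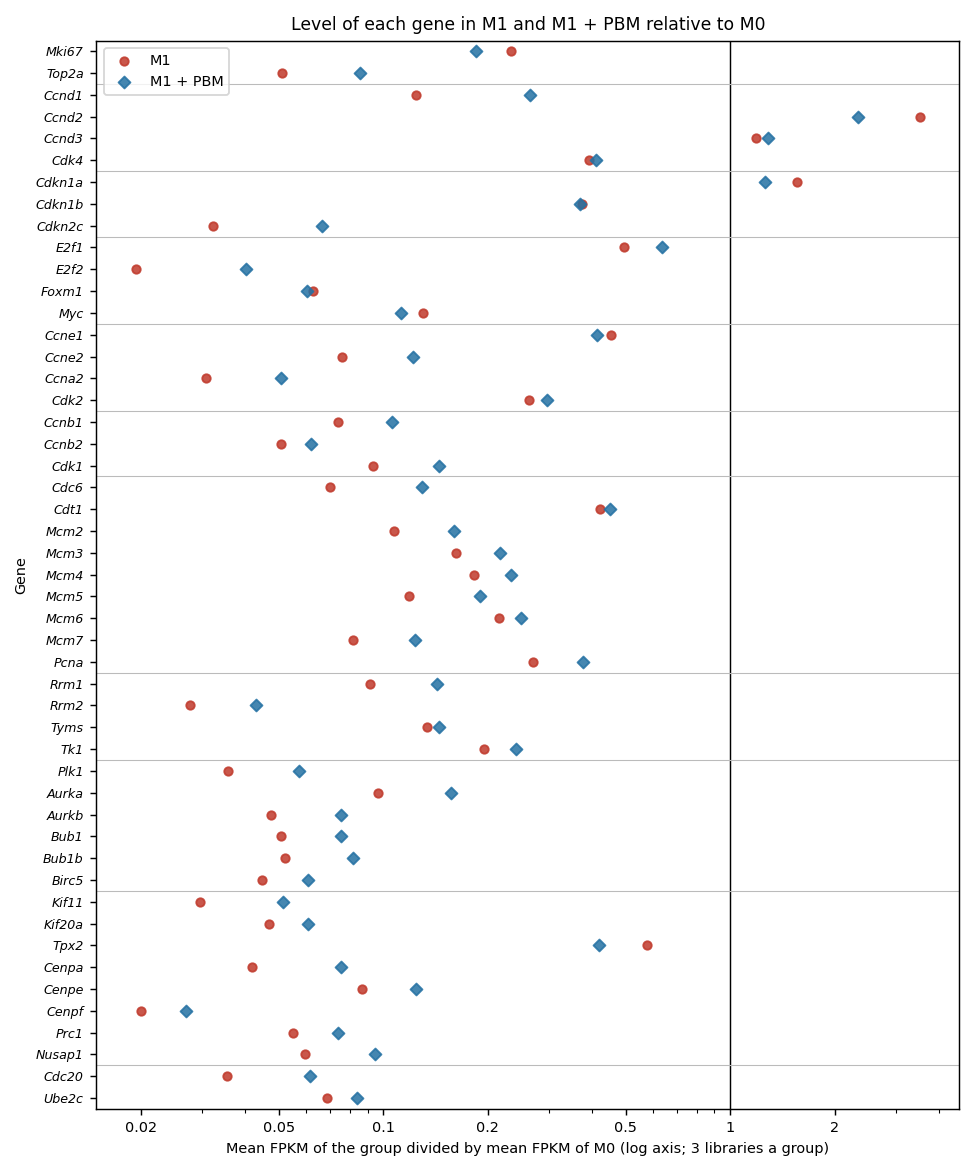
Mean FPKM of M1 (red circles) and M1 + PBM (blue diamonds) divided by mean FPKM of M0 (log axis, 3 libraries a group) for the 49 genes in role order; the vertical line marks equality with M0. Most points lie at or below 0.2, and Ccnd2, Ccnd3 and Cdkn1a lie to the right of the line, with libraries that overlap those of M0.

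Whether PBM changed the cell cycle genes of M1 macrophages was tested with limma on log2(FPKM + 1) over the 12238 rows that reached the minimum level, which 30 of the 49 genes did. In these fits no gene of the list met the thresholds of the study, an unadjusted p of at most 0.05 with a 2-fold change (0 of 30 genes, against 0.261% of all rows). The study's own calls at these thresholds can differ, since the fold change and the p-value here come from limma on log2(FPKM + 1). By an unadjusted p of at most 0.05 alone 1 of the 30 was higher with PBM, Pcna, against 2.99% of all rows, and 0 were lower. After Benjamini-Hochberg adjustment over all rows 0 of the 30 were below 0.05, with adjusted p from 0.90 to 0.98. For Pcna the difference was 0.46 on the log2 scale (SE 0.16, limma p = 0.030, adjusted p = 0.90, exact two-sided permutation p = 0.1), and the M1 + PBM mean was 1.40 times the M1 mean. Pcna and Tk1 were the genes above every M1 library in every M1 + PBM library (2 genes, against 8.51% of all rows), each with an exact two-sided permutation p of 0.1, which is the smallest that 3 against 3 libraries allow.

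The mean log2 level was higher with PBM for 41 of the 49 genes and lower for 8. The median difference was 0.21 over the 49 genes and 0.058 over all rows kept, and 0.18 and -0.0053 after scaling by the median of ratios. Over the 49 genes it was 0.073 without M1 + PBM replicate 1, 0.40 without M1 + PBM replicate 2 and 0.41 with a pseudocount of 0.1. The replicates did not share this direction. Between libraries with the same number, 44 of the 49 genes were higher with PBM in replicate 1, 13 in replicate 2 and 44 in replicate 3, with medians of 0.27, -0.079 and 0.40. In 31 genes the difference was above 0 in replicates 1 and 3 and below 0 in replicate 2. In all, 9 genes were higher in all 3 replicates and 0 were lower in all 3. The shares of all rows with these directions are not given here, so whether the counts are particular to the list cannot be told. M1 + PBM replicate 2 held a median of 0.374 times the mean of replicates 1 and 3, and for 28 of the 49 genes it was the lowest of the 6 stimulated libraries. The share of all rows lowest there is likewise not given. The stromal sum of M1 + PBM replicate 2, 6.33 FPKM, was also the lowest of the 6, and its estimated depth, 42080000 fragments, the greatest.

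**Figure D4:**
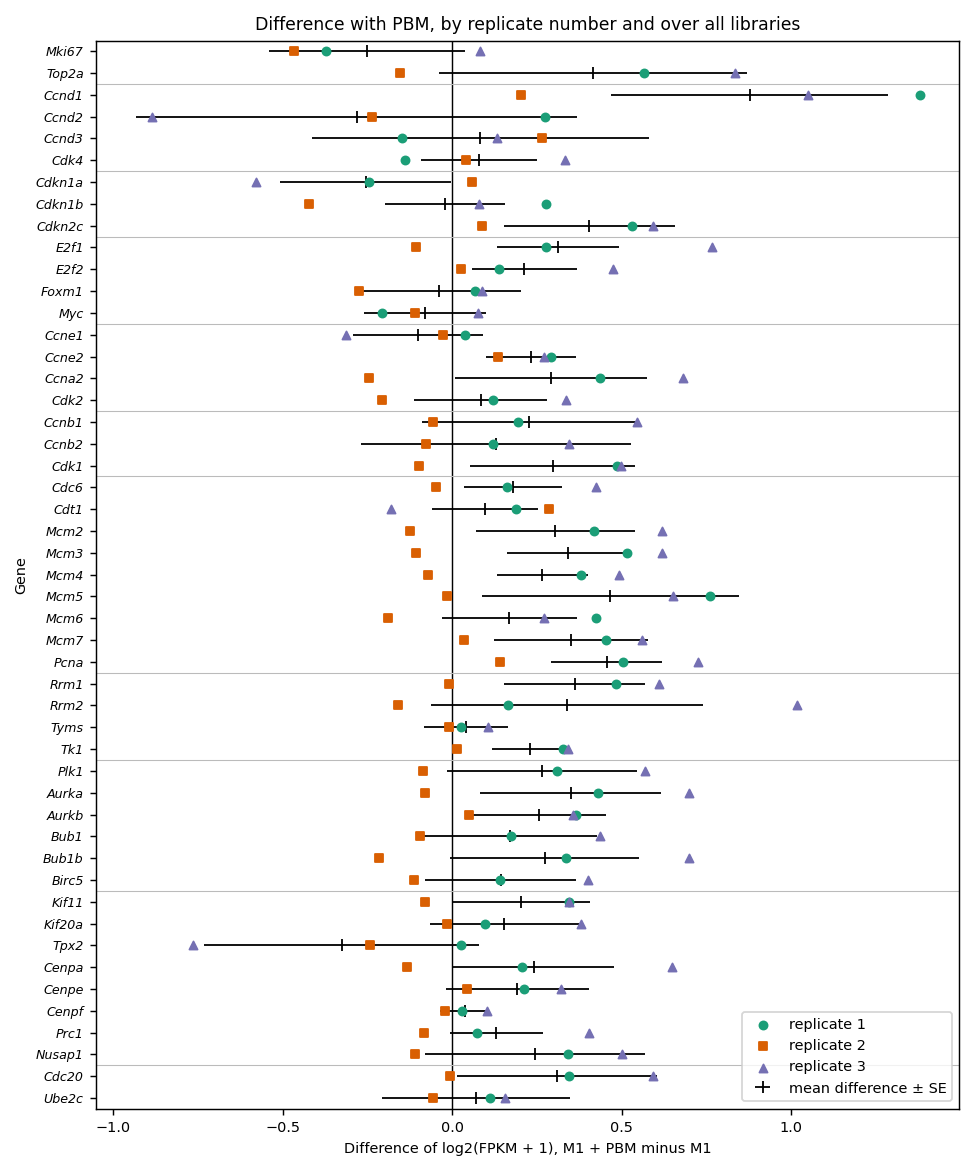
Difference of log2(FPKM + 1), M1 + PBM minus M1, for the 49 genes in role order: coloured points give each replicate number, and black ticks with bars the mean difference ± SE from limma (for the 19 genes under the minimum level, from the fit without a minimum). Replicate 2 (orange squares) lies left of replicates 1 and 3 for most genes, and the bars of most genes reach or come near 0.

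Exons of Ccnd1 and Tk1 overlap those of a gene on the opposite strand (LTO1 and Afmid), so their values may hold reads of the partner, and Pcna and Mcm5 have no such overlap. No sample label states that libraries were paired, and same-numbered libraries were taken as pairs from correlations in these same data. With the replicate as a block, 3 of the 30 genes were higher at an unadjusted limma p of at most 0.05, against 4.84% of all rows. For Ccnd1 the difference was 0.88 (SE 0.24, limma p = 0.016 with the block, SE 0.41 and p = 0.072 without it, and 0.2 by the exact permutation test). For Mcm5 it was 0.47 (SE 0.18, limma p = 0.048 with the block, SE 0.38 and p = 0.26 without it, and 0.5 by the exact permutation test). For Pcna the SE was 0.13 with the block. After adjustment 0 of the 30 were below 0.05 with the block (adjusted p from 0.58 to 0.96). When M1 + PBM replicate 2 was left out, 16 of the 30 genes passed the unadjusted threshold in limma (5.19% of all rows did so in the higher direction), each higher with PBM, and 1, Ccnd1, met both thresholds, at a difference of 1.32. The 16 were Mcm2, Mcm3, Mcm4, Mcm5, Mcm7, Pcna, Rrm1, Rrm2, Top2a, Ccna2, E2f1, Ccnd1, Cdk1, Plk1, Aurka and Bub1b. Of these, Ccna2, Rrm2, Cdk1, Plk1, Aurka and Bub1b reached 1 FPKM only in M1 replicate 1 and M1 + PBM replicates 1 and 3. They thus entered the test through the M1 + PBM libraries that were left in. Without M1 + PBM replicate 1 or 3 the count was 0, and 1.25% and 1.47% of all rows were higher at this threshold. The count of genes therefore depended on which M1 + PBM library was left out, as did the share of all rows.

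By role, the median ratio of the M1 + PBM mean to the M1 mean was 1.40 for licensing, helicase and clamp genes, 1.40 for nucleotide synthesis, 1.58 for mitotic kinases and checkpoint genes, 1.39 for the spindle group, 1.43 for mitotic cyclins and Cdk1, 1.47 for the partners of the anaphase-promoting complex and 1.36 for cyclins E and A with Cdk2. It was lower in the other roles, at 1.23 for the proliferation markers, 1.12 for transcription factors, 1.07 for D-type cyclins with Cdk4 and 0.989 for the inhibitors. The highest ratios were 2.12 for Ccnd1, 2.08 for E2f2 and 2.07 for Cdkn2c. E2f2 (means of 0.185 FPKM in M1 and 0.386 in M1 + PBM) and Cdkn2c (0.495 and 1.03) did not reach the minimum level and were not tested. Only 1 of the 8 spindle genes and 0 of the 2 partners of the anaphase-promoting complex reached it, so those medians rest on low values. The same ratio over all rows is not given here. Mean levels below those of M1 were found for Mki67 (ratio 0.792), Ccnd2 (0.663), Cdkn1a (0.809), Cdkn1b (0.989), Foxm1 (0.962), Myc (0.866), Ccne1 (0.910) and Tpx2 (0.728), and all 8 overlapped M1. Mki67 and Top2a, the pair of markers used most often for dividing cells, thus had mean ratios on opposite sides of 1. The difference was -0.25 on the log2 scale (SE 0.29) for Mki67 and 0.42 (SE 0.45) for Top2a. With 1 library left out at a time it ranged from -0.57 to -0.091 for Mki67, which without M1 replicate 3 passed the unadjusted limma threshold as lower with PBM, and from 0.067 (without M1 + PBM replicate 1) to 0.89 (without M1 + PBM replicate 2) for Top2a. M1 replicate 3 was the highest M1 library for both Ccnd2 and Tpx2, and without it their differences were 0.41 and 0.052.

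**Figure D5:**
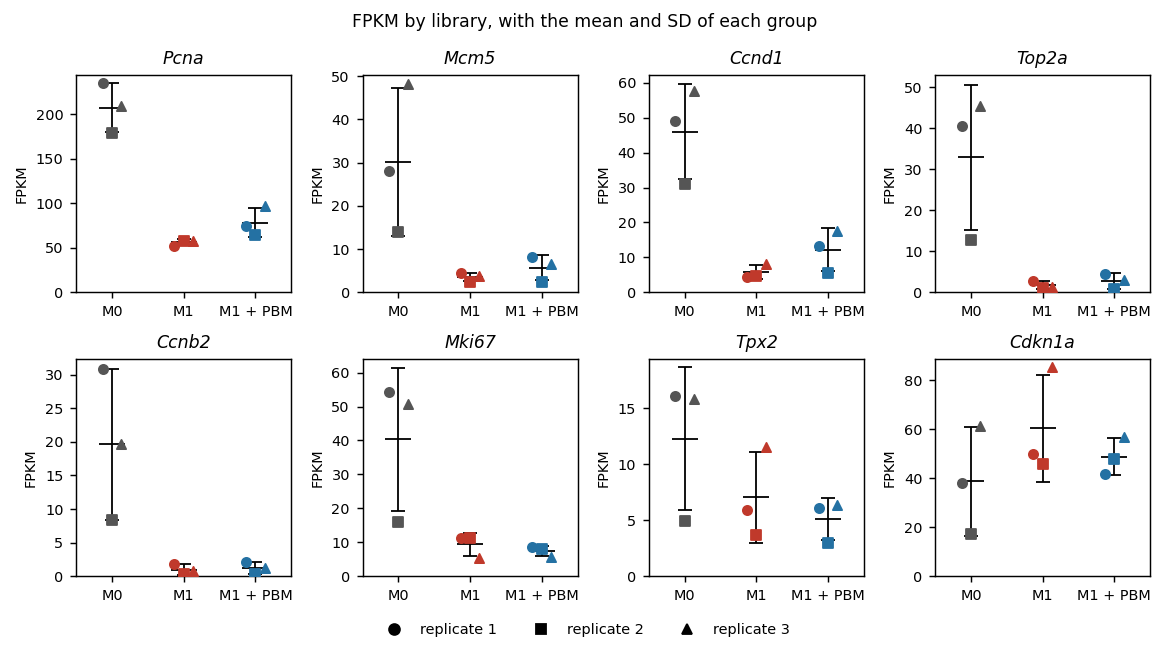
FPKM of 8 genes in each library (circle, square and triangle for replicates 1, 2 and 3) with the group mean and SD (black bars, n = 3; each axis starts at 0). Pcna separates the 3 groups, Mcm5, Top2a and Ccnb2 show M1 + PBM replicate 2 below the M1 libraries, and Cdkn1a and Tpx2 overlap in all groups.

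Further genes of the same pathways were given by their counts, and in each list but the p53 targets most were lower in M1 than in M0. Of 47 other genes of origin licensing, the replisome and replication-coupled chromatin, 43 were lower in every M1 library than in every M0 library and 0 were higher. Of all rows kept 50.6% were lower and 15.6% higher by this rule, or 25.3% and 31.6% after median-of-ratios scaling, and the counts of the lists below are read against the same shares. The maintenance DNA methyltransferase Dnmt1 averaged 36.1 ± 9.81 FPKM in M0, 9.74 ± 1.36 in M1 and 12.1 ± 2.37 in M1 + PBM. Uhrf1, which brings Dnmt1 to replicated DNA, averaged 32.6 ± 21, 1.48 ± 0.354 and 2.61 ± 1.47 FPKM. Of the 31 genes of this list that were tested, 5 were higher with PBM at an unadjusted limma p of at most 0.05, against 2.99% of all rows, and 0 lower, and 0 of them passed adjustment (each adjusted p = 0.90). They were Rpa1 (difference 0.55), Rfc4 (0.38), Fen1 (0.82), Rpa2 (0.21) and Rfc1 (0.27), which bind single-stranded DNA, load the clamp or mature the lagging strand, and they are named because they passed. With the replicate block the count was 3, against 4.84% of all rows.

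Of 50 other genes of the kinetochore, spindle, condensin and cytokinesis, 48 were lower in M1 than in M0 without overlap (50.6% of all rows) and 1 was higher (15.6% of all rows), while of the 8 that were tested 0 reached an unadjusted limma p of at most 0.05 with PBM. Incenp, the scaffold of the chromosomal passenger complex, averaged 21.3 ± 9.36 FPKM in M0, 8.84 ± 0.796 in M1 and 10.7 ± 2.39 in M1 + PBM. Zwint, a kinetochore protein, averaged 11.3 ± 1.69, 12.0 ± 1.29 and 11.7 ± 2.67 FPKM.

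Of 35 E2F, DREAM and G1 regulators, 27 were lower in M1 than in M0 without overlap, against 50.6% of all rows, and 1 was higher, against 15.6%. E2f4, a repressor found in resting cells, averaged 16.7 ± 1.77 FPKM in M0, 16.5 ± 0.442 in M1 and 16.8 ± 1.44 in M1 + PBM. Cdk6, a partner of D-type cyclins, averaged 21.4 ± 2.71, 9.28 ± 2.5 and 9.31 ± 1.73 FPKM. With PBM 2 of the 22 tested were higher at an unadjusted limma p of at most 0.05, against 2.99% of all rows. They were Rb1, the retinoblastoma gene (0.38), and Skp2, a ligase subunit that targets p27 (0.30), with 0 lower and an adjusted p of 0.90 for both.

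Of 18 p53 targets, a class of genes to which Cdkn1a belongs, 7 were lower in M1 than in M0 (50.6% of all rows) and 2 higher (15.6% of all rows). Plk2, a stress-induced polo-like kinase, stood at 51.8, 50.6 and 36.1 FPKM in M0, at 37.3, 28.3 and 30.0 in M1, and at 17.4, 23.0 and 18.2 in M1 + PBM. It was lower with PBM in every library (-0.68, SE 0.16, adjusted p = 0.90), and Sesn1, a stress-induced inhibitor of growth signalling, was higher (0.84, SE 0.20, adjusted p = 0.90). At an unadjusted limma p of at most 0.05, 1 of the 15 p53 targets tested was higher with PBM, against 2.99% of all rows. This was Sesn1, which is named because it passed. Plk2 was the 1 that was lower, against 1.45% of all rows. With the replicate block 1 was higher, against 4.84% of all rows, and 2 were lower. In either direction 8.07% of all rows passed with the block. Mdm2, the ligase that degrades p53, averaged 21.6 ± 5.58 FPKM in M0, 43.1 ± 12.0 in M1 and 31.2 ± 2.87 in M1 + PBM. Of the 20 genes of Myc-linked growth and ribosome biogenesis, 16 were lower in M1 than in M0 (50.6% of all rows) and 1 higher (15.6% of all rows), and of the 19 tested 0 passed an unadjusted p of at most 0.05 with PBM. The nucleolar gene Npm1 averaged 42.5 ± 5.87 FPKM in M0, 21.4 ± 4.87 in M1 and 18.7 ± 4.01 in M1 + PBM, and Pes1, of ribosome assembly, 21.6 ± 2.09, 16.7 ± 1.56 and 18.9 ± 1.36 FPKM.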

How the data were processed

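RNA-seq libraries of 3 M0, 3 M1 and 3 M1 + PBM cultures were analysed from FPKM values. The authors deposited FPKM per gene, with M0 in 1 table and the other 6 libraries in another. Their notes name the build mm9 and Bowtie 0.12.2, the methods name Cufflinks-type FPKM, and 320 rows carry names of the form that StringTie gives. Symbols were matched by Ensembl identifier. Counts could not be recovered: 22.5% to 24.3% of low values lay on whole-read steps (tolerance 0.05), where an even spread gives 10%. Each share is the highest over the depths tried, so 10% is not a strict reference. The estimated depths and the fragment numbers drawn from them are therefore uncertain.

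The 12238 rows that reached 1 FPKM in 3 or more of the 6 libraries were fitted with limma 3.58.1 (lmFit, eBayes with trend, R 4.3.3) on log2(FPKM + 1), with Benjamini-Hochberg adjustment. Fold changes on this scale understate changes of low genes. M0 was described over the 13915 rows that reached 1 FPKM in 3 or more of the 9. Deviations of same-numbered M1 and M1 + PBM libraries correlated at 0.157, 0.469 and 0.462, so the numbers were taken to pair the libraries. Alternatives were a pseudocount of 0.1, no minimum, median-of-ratios scaling, the replicate block and each library left out. Exons of 18 of the 49 genes overlap another gene (16 on the opposite strand), and whether counting used strand was not given in the sources used here.

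Members and lists were chosen with earlier results of these data known. Values in every library are given for D-type cyclins, inhibitors and transcription factors, and in each other role for the member with the highest mean FPKM and that with the largest log2 change with PBM. For Tk1, Ccne1 and pathway genes at an unadjusted p of at most 0.05, values were added after they were seen. Intervals for counting error were not computed, since read counts are unknown. The fit was tested on simulated data.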

Additional observations from a re-analysis of the deposited data

How the results depend on the processing

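The count of cell cycle genes past the thresholds with PBM was 0 and ranged from 0 to 1 with each library left out. The count at an unadjusted limma p of at most 0.05 was 1 with the settings of the report and 0 with median-of-ratios scaling. With each library left out it ranged from 0 to 16, while the share of all rows at this threshold ranged from 2.12% to 8.90%. It was 3 with the replicate block, which takes same-numbered libraries as pairs. Among the members the block changed no other call. Among the pathway lists it moved the count for licensing and the replisome from 5 to 3 higher and that for p53 targets from 1 to 2 lower. Of the 18 genes that were chosen by rule for values in every library and reached the minimum level, 6 had a log2 difference that changed sign when 1 library was left out, and none of the 6 was called: Ccnd2 from -0.79 to 0.41, Ccnd3 from -0.37 to 0.51, Cdkn1a from -0.42 to 0.019, Cdkn1b from -0.14 to 0.14, Ccnb2 from -0.16 to 0.48 and Tpx2 from -0.66 to 0.052. The cause was not tested. Counts of genes lower than M0 ranged from 44 to 46 for M1 and from 43 to 46 for M1 + PBM without each library in turn, an alternative added after seeing the data. Genes near 1 FPKM rest on few fragments, and the depth is an estimate.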
